A study of Homo sapiens with 24 samples.

Results

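The 10 genes CDKN1B, CDKN1C, CDKN2C, BTG1, BTG2, TOB1, TOB2, GADD45A, GADD45B and GADD45G belong to 3 groups of genes that restrain cell division or act in the response to stress. They were taken by symbol from the 58884 genes listed in each of 2 expression tables from HEK293T, a human embryonic kidney cell line. The first table held 2 libraries of wild-type cells (WT) and 2 of cells labelled as a SETD2 knockout (KO), all labelled untreated. The second held 2 untreated KO libraries, 2 libraries of KO cells expressing full-length SETD2 (SETD2 FL) and 2 of KO cells expressing a C-terminal SETD2 segment of residues 1404 to 2564 (SETD2 C, given as N3 in the sample labels). The constructs were driven by a CMV promoter and introduced by transfection, and RNA was isolated 72 h later. No library of KO cells with an empty vector was among those analysed. Transfection and the SETD2 protein thus cannot be told apart in comparisons with KO, whereas SETD2 FL and SETD2 C were both transfected. The study reports a markedly higher protein level of SETD2 C than of SETD2 FL, so construct and amount cannot be told apart between them. Whether the KO cells were 1 clone is not given in the sources used here.

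SETD2 is the enzyme that places trimethylation on lysine 36 of histone H3 along transcribed genes. The cyclin-dependent kinase (CDK) inhibitors hold back the kinases that drive cells from G1 into S phase. CDKN1B (p27) and CDKN1C (p57) bind cyclin and CDK complexes together, and CDKN2C (p18) binds CDK4 and CDK6 directly. The BTG and TOB proteins connect messenger RNAs to the CCR4-NOT deadenylase complex, which shortens poly(A) tails, and restrain proliferation when overproduced. The GADD45 proteins are small acidic proteins that are induced by growth arrest and DNA damage, bind PCNA and activate the kinase MAP3K4 upstream of p38 and JNK.

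SETD2 itself was examined first. In TPM, which is transcript abundance per length relative to the whole library, it stood at 12.62 and 14.82 in the first table's libraries labelled WT, whereas those labelled KO had 16.19 and 16.31. The study describes the KO cells as carrying disruptions in both SETD2 alleles, and a disrupted gene can still be transcribed, so the transcript level does not check the genotype. Every direction between WT and KO rests on the labels. In the second table the libraries labelled KO stood at 11.99 and 12.15. Those expressing SETD2 FL stood at 439.26 and 421.96, and those expressing SETD2 C at 1329.05 and 1264.32. The TPM listed for SETD2 thus differed between the constructs, whereas the study reports no significant difference in their mRNA from its RNA-seq data. SETD2 C is only a segment of the gene product, and how this affects a TPM given per gene was not tested. The 10 libraries had between 24306 and 27104 genes with a TPM above 0, and sequencing depth cannot be read from TPM. Mitochondrially encoded genes took 2.93% and 3.37% of TPM with SETD2 C, 6.23% and 7.04% in the KO libraries of that table, 7.79% and 11% with SETD2 FL, and between 12% and 23.2% in the first table. Of the HEK293T markers, VIM and KRT18 were present in all libraries, whereas PAX8 was at or near 0 and PAX2 and LHX1 did not exceed 2.21 TPM. The summed TPM of the 9 HEK293T markers was 1635 and 1719 with SETD2 C and between 927.2 and 1099 in the other libraries of the second table. With SETD2 C relative to KO, ENO2 rose 6.7-fold, KRT8 3.04-fold, NEFL 2.33-fold and NEFM 2.3-fold. The fold changes were smaller for VIM (1.04), KRT18 (1.16), PAX2 (1.1) and LHX1 (1.37). The summed TPM of 14 markers of blood, endothelium, fibroblast, liver and muscle was 17.8 and 21 with SETD2 C and between 9.92 and 13.9 in the other libraries of that table. Of these 14 markers, 5 were tested and all 5 were higher with SETD2 C than in KO at the adjusted p, whereas the blood marker PTPRC was at 0 in KO and at 0.01 and 0.02 with SETD2 C. Fewer cells of a type and less RNA per cell cannot be told apart in such bulk libraries.

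The genes lie on 7 chromosomes of GRCh38. CDKN1B (ENSG00000111276) spans 12685498 to 12722369 on the plus strand of chromosome 12, with 3 exons in its reference transcript. CDKN1C (ENSG00000129757) spans 2883213 to 2885775 on the minus strand of chromosome 11, with 4 exons. CDKN2C (ENSG00000123080) spans 50960745 to 50974634 on the plus strand of chromosome 1, with 2 exons. The BTG and TOB genes each have 2 exons in the reference transcript. BTG1 (ENSG00000133639) lies on the minus strand of chromosome 12 from 92140278 to 92145846, and BTG2 (ENSG00000159388) on the plus strand of chromosome 1 from 203305491 to 203309602. TOB1 (ENSG00000141232) lies on the minus strand of chromosome 17 from 50862223 to 50867978, and TOB2 (ENSG00000183864) on the minus strand of chromosome 22 from 41433494 to 41446801. The GADD45 genes share a structure of 4 exons and a coding sequence of similar length, 495 nt in GADD45A, 480 nt in GADD45B and 477 nt in GADD45G. GADD45A (ENSG00000116717) spans 67685201 to 67688334 on chromosome 1, GADD45B (ENSG00000099860) spans 2476122 to 2478259 on chromosome 19, and GADD45G (ENSG00000130222) spans 89605012 to 89606555 on chromosome 9, all on the plus strand.

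Of the 10 genes, 8 matched the RefSeq promoter table of GRCh38.p14, and CDKN1C and GADD45A did not. The 250 bases before the start of BTG1, CDKN2C and GADD45B are shown because these 3 genes were higher with SETD2 C than both with KO and with SETD2 FL, as described further on. Each is written 5′ to 3′ along the gene, and capitals mark matches to any of the 9 motifs searched.
BTG1, chr12:92145847-92146096, minus strand: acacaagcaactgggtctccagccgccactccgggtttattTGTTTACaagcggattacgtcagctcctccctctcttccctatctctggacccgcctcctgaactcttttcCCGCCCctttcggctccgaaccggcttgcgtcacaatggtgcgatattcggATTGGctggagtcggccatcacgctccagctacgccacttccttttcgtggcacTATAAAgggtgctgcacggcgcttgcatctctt
CDKN2C, chr1:50960495-50960744, plus strand: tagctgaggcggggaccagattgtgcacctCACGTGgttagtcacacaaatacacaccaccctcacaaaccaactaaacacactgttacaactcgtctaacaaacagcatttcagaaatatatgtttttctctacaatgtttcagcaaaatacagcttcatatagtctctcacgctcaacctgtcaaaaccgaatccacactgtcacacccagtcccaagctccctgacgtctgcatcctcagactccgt
GADD45B, chr19:2475877-2476126, plus strand: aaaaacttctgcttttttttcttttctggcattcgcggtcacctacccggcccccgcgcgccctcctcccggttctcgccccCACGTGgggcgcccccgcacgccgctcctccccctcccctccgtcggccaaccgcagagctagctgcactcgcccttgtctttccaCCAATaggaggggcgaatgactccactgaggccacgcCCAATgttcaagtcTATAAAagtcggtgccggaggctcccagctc
Motifs were searched on both strands, and shares refer to the same 250-base window of all 27305 promoters. The TATA box letters TATAAA were in 2 of the 8 promoters, BTG1 and GADD45B, where the match began 33 and 31 bases before the start, and in 11.1% of all promoters. CCAAT was in 5 of 8 (33% of all promoters), with 2 matches in GADD45B and 1 in BTG1, and the GC box GGGCGG was in 4 of 8 (42.3% of all promoters), BTG1 among them. The letters ACGTG, the core of hypoxia response elements, were in 3 of 8 (18.7% of all promoters), namely CDKN2C, GADD45B and GADD45G, in each as a palindrome that matched on both strands. GTAAACA, which FOXO proteins bind, was in BTG1 alone among the 8 (2.98% of all promoters). None of the 8 held the AP-1 letters TGACTCA (4.16% of all promoters), the cyclic AMP response element TGACGTCA (1.77%), GAANNTTC of heat shock elements (5.85%) or the ATF4 letters TGATGCAA (0.82%). Among these motifs no match overlapped a match of another. A match describes letters only, and the absence of one says only that the letters are not in this window.

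The 3′ untranslated regions also differed. The pentamer ATTTA, the core of AU-rich elements that destabilise messenger RNAs, occurred in 67.6% of annotated 3′ untranslated regions of protein-coding genes. It occurred 7 times in the 1342 nt of CDKN1B, 5 times in the 3802 nt of BTG1 and 4 times in the 757 nt of TOB1. At least 4 occurred in 34.2% of the annotated regions. Per kb, BTG1 had 1.32, beside a median of 1.51 over these regions. CDKN1C and TOB2 had 3 each, BTG2 had 2 and CDKN2C had 1. GADD45A had 2 in 560 nt, whereas GADD45B, with 656 nt, and GADD45G, with 476 nt, had 0.

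In each of the 10 libraries CDKN2C and GADD45A were the 2 most abundant of the 10 genes on the TPM scale. CDKN2C exceeded GADD45A in all libraries of the first table and in KO of the second, and GADD45A exceeded CDKN2C in every SETD2 FL and SETD2 C library. GADD45G was listed between 0 and 0.36 TPM which was below the minimum for testing, so 9 of the 10 genes were tested. TPM was scaled between libraries and tested with limma as log2(scaled TPM + 0.5), and a gene was called when its fold change was at least 2 and its Benjamini-Hochberg adjusted p over all genes was at most 0.05. Counts at the adjusted p alone are given beside the calls. Nothing in the labels says that libraries of a group came from separate cultures, so p-values measure the spread between these libraries.

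**Figure D1:**
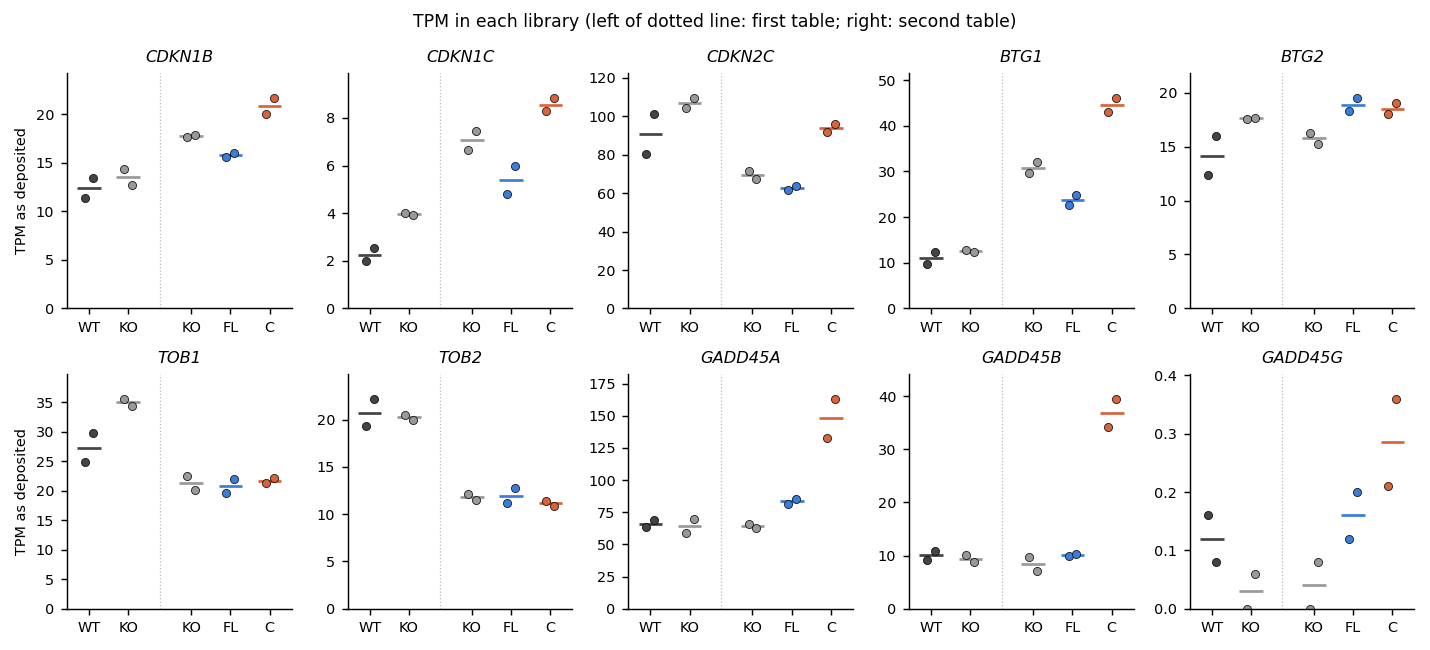
TPM as deposited (y axis) of the 10 genes in WT and KO (first table) and in KO, SETD2 FL (FL) and SETD2 C (C) (second table) on the x axis, where points are libraries and bars are means of 2. The SETD2 C libraries stood at 34.28 and 39.51 for GADD45B and at 132.85 and 163.28 for GADD45A, above all other libraries of the second table, and for BTG1 the SETD2 FL libraries were the lowest and the SETD2 C libraries the highest.

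WT and KO cells were compared to ask whether the KO label went with other levels of these genes. CDKN1C was the only gene of the 9 that changed at the adjusted p, and it was higher in KO. Its TPM was 2.00 and 2.52 in WT and 4.02 and 3.92 in KO, a mean of 2.26 ± 0.368 (SD, n = 2) against 3.97 ± 0.0707 (SD, n = 2). The groups did not overlap, and the log2 fold change was 0.59 (SE 0.118, adjusted p = 0.046 from limma), a 1.51-fold change that is below the fold threshold. This was lost without the first WT library (adjusted p = 0.11 from limma), without the first KO library (0.178) or the second KO library (0.238), and when every gene with a TPM above 0 was kept (0.149). Its adjusted p ranged from 0.0179 to 0.238 over all settings. None of the 9 genes was called in either direction, where 0.339% of all 14746 tested genes were called higher in KO and 1.02% lower. By the adjusted p alone, KO had 1 of the 9 higher and 0 lower, against 1.32% and 3.17% of all genes. These shares rest on 194 genes higher and 467 lower, which were 31 and 126 without the second KO library, 35 and 174 without the first, 100 and 188 without the first WT library and 477 and 768 without the second.

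The other genes were close between WT and KO. CDKN1B had a TPM of 11.37 and 13.48 in WT and 14.36 and 12.76 in KO, and the libraries overlapped. Its log2 fold change was -0.002 with a 95% interval from -0.215 to 0.211, and its sign turned in other scalings. CDKN2C was at 80.34 and 101.02 in WT and at 104.29 and 109.25 in KO (log2 fold change 0.11, adjusted p = 0.386 from limma). TOB1 stood at 24.83 and 29.76 in WT and at 35.63 and 34.36 in KO, without overlap, and its log2 fold change of 0.23 had an interval from 0.061 to 0.398 and an adjusted p of 0.112 from limma. BTG2 gave 12.32 and 16.01 in WT and 17.57 and 17.64 in KO (log2 fold change 0.19, adjusted p = 0.229 from limma). BTG1 (9.82 and 12.36 in WT, 12.77 and 12.30 in KO) and TOB2 (19.29 and 22.20 in WT, 20.53 and 19.91 in KO) overlapped between the groups as deposited, but after scaling TOB2 was at 21.949 and 21.349 in WT and at 19.436 and 19.197 in KO, without overlap (adjusted p = 0.241 from limma). GADD45A was at 63.82 and 68.64 in WT and at 59.20 and 69.44 in KO, and GADD45B at 9.26 and 10.78 in WT and at 10.06 and 8.75 in KO, so that both overlapped as deposited. After scaling GADD45B was at 10.537 and 10.367 in WT and at 9.524 and 8.437 in KO, without overlap (adjusted p = 0.237 from limma). GADD45G was listed at 0.16 and 0.08 in WT and at 0.00 and 0.06 in KO. Over the 9 genes the median change on the log2 scale was 0.05, beside -0.01 over all genes tested. The first WT library had the highest mitochondrial share of the first table, 23.2% against 14.1% in the second WT library, and the lower deposited TPM of the WT pair for all 9 tested genes.

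**Figure D2:**
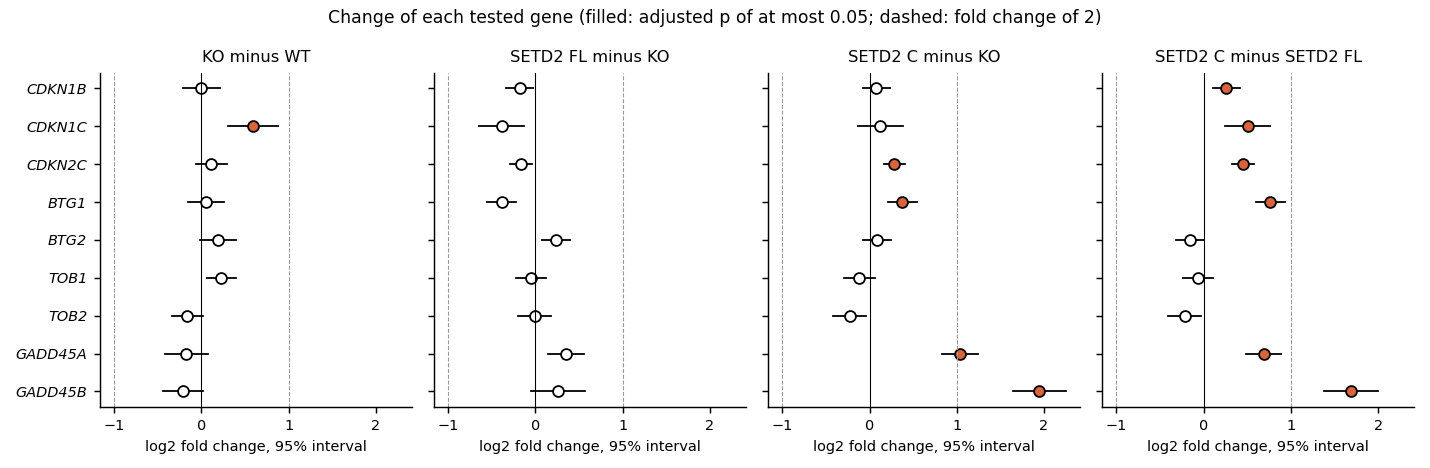
Log2 fold change on the log2(scaled TPM + 0.5) scale (x axis, bars are 95% intervals) of the 9 tested genes (y axis) in the 4 comparisons, with 2 libraries per group. Filled points passed an adjusted p of 0.05, which were 1 gene in KO against WT, 0 in SETD2 FL against KO, 4 in SETD2 C against KO and 6 in SETD2 C against SETD2 FL.

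Expression of SETD2 FL in KO cells was compared with KO to see whether the full-length protein moved these genes. None of the 9 passed the adjusted p. No gene was called, beside 0.0753% of all 15933 tested genes called higher and 0.00628% called lower, and at the adjusted p alone the shares over all genes were 0.176% higher and 0.0314% lower. The 12 genes called higher among all genes were between 2 and 6 with any one of the 4 libraries left out, and the 28 past the adjusted p between 2 and 9. Before adjustment, 6 of the 9 genes and 15.9% of all genes tested had a p under 0.05. The 6 were CDKN1B, CDKN1C, CDKN2C and BTG1, with lower values with SETD2 FL, and BTG2 and GADD45A, with higher ones.

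BTG1 had the smallest adjusted p of the 9 in this comparison. Its TPM was 29.55 and 32.15 in KO and 22.71 and 24.89 with SETD2 FL, so that both SETD2 FL libraries lay below both KO libraries. The log2 fold change was -0.39 (95% interval -0.552 to -0.223, adjusted p = 0.0998 from limma). BTG2, its close relative, was at 16.30 and 15.22 in KO and at 18.31 and 19.46 with SETD2 FL (log2 fold change 0.23, adjusted p = 0.192 from limma). The values of the CDK inhibitors were lower in both SETD2 FL libraries than in both KO libraries. CDKN1C was at 6.67 and 7.46 in KO and at 4.80 and 5.99 with SETD2 FL (log2 fold change -0.39, adjusted p = 0.19 from limma). CDKN2C was at 71.48 and 67.34 in KO and at 61.71 and 63.51 with SETD2 FL (log2 fold change -0.17, adjusted p = 0.218 from limma). CDKN1B was at 17.63 and 17.91 in KO and at 15.64 and 16.03 with SETD2 FL (log2 fold change -0.18, adjusted p = 0.264 from limma). These differences exceeded the spread between the libraries of a group, but not the threshold over all genes.

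GADD45A was at 65.82 and 63.17 in KO and at 81.43 and 85.50 with SETD2 FL, so its log2 fold change was 0.35 (95% interval 0.147 to 0.552, adjusted p = 0.157 from limma). GADD45B, at 9.66 and 7.06 in KO and at 9.87 and 10.37 with SETD2 FL, had a log2 fold change of 0.26 and an interval that included 0, from -0.049 to 0.566. TOB1 was at 22.44 and 20.19 in KO and at 19.67 and 21.97 with SETD2 FL, and TOB2 at 12.15 and 11.51 in KO and at 11.15 and 12.77 with SETD2 FL. Both TOB genes overlapped between the groups, and their log2 fold changes of -0.05 and -0.01 turned sign under some scalings. GADD45G was listed at 0.00 and 0.08 in KO and at 0.12 and 0.20 with SETD2 FL. Over the 9 genes the median change on the log2 scale was -0.05, against 0.01 over all genes.

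GADD45A and GADD45B rose with SETD2 C relative to KO. GADD45B rose 3.85-fold and GADD45A 2.05-fold, and CDKN2C and BTG1 rose by less than 2-fold, at the adjusted p alone. No gene of the 9 was lower at the adjusted p. In this comparison 2 of the 9 genes were called higher and 0 lower, beside 3.75% of all tested genes called higher and 0.314% called lower. By the adjusted p alone, SETD2 C had 4 of the 9 higher and 0 lower, beside 21.1% and 15.1% of all genes.

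GADD45B was at 9.66 and 7.06 TPM in KO and at 34.28 and 39.51 with SETD2 C, a mean of 8.36 ± 1.84 (SD, n = 2) against 36.89 ± 3.7 (SD, n = 2). The groups were far apart, and the log2 fold change was 1.95 (SE 0.133, adjusted p = 8.36e-05 from limma). GADD45A was at 65.82 and 63.17 in KO and at 132.85 and 163.28 with SETD2 C, a mean of 64.5 ± 1.87 (SD, n = 2) against 148.1 ± 21.5 (SD, n = 2). Its log2 fold change was 1.04 (SE 0.088, adjusted p = 0.000236 from limma). Without the second SETD2 C library the log2 fold change of GADD45A was 0.89, below the fold threshold, and the count called higher was then 1. GADD45G was listed at 0.21 and 0.36 with SETD2 C, above the 0.00 and 0.08 of KO. When every gene with a TPM above 0 was kept, its log2 fold change was 0.5 (adjusted p = 0.057 from limma), at levels where the pseudocount sets the size.

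BTG1 was at 29.55 and 32.15 in KO and at 43.00 and 45.98 with SETD2 C, without overlap, a log2 fold change of 0.38 (SE 0.071, adjusted p = 0.00576 from limma). CDKN2C was at 71.48 and 67.34 in KO and at 91.82 and 95.73 with SETD2 C, also without overlap, a log2 fold change of 0.28 (SE 0.054, adjusted p = 0.00578 from limma). CDKN1B was at 20.04 and 21.64 with SETD2 C, CDKN1C at 8.31 and 8.82 and BTG2 at 18.01 and 19.01. The deposited TPM of these 3 genes lay above both KO libraries, but after scaling their log2 fold changes were 0.08, 0.12 and 0.08 and did not pass the test (adjusted p = 0.397, 0.418 and 0.383 from limma). TOB1 was at 21.26 and 22.20 with SETD2 C and overlapped with KO as deposited. After scaling it was at 20.005 and 20.771 with SETD2 C and at 23.223 and 21.094 in KO, and its log2 fold change of -0.12 was 0.03 without scaling. TOB2 was at 11.44 and 10.83, with a log2 fold change of -0.23 (95% interval -0.416 to -0.035, adjusted p = 0.0647 from limma). Over the 9 genes the median change on the log2 scale was 0.12, beside 0.05 over all genes tested. The median over all genes was itself shifted when TPM was left unscaled, to 0.18 for SETD2 C against KO and to 0.16 against SETD2 FL.

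The lower mitochondrial share of the SETD2 C libraries moved with these results. When TPM was rescaled without mitochondrially encoded genes and SETD2, the log2 fold changes were 1.13 for GADD45A and 2.04 for GADD45B, and the median over all genes went from 0.05 to 0.14. The higher sums of the marker lists in the SETD2 C libraries also moved with the 4 genes. The part of the mitochondrial share and of the marker genes in the result was not tested.

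Relative to SETD2 FL, which was also transfected, SETD2 C had higher levels of 6 of the 9 genes at the adjusted p, namely all 3 CDK inhibitors, BTG1, GADD45A and GADD45B. BTG2, TOB1 and TOB2 did not pass the test. Of these 6, GADD45B was called, at 3.22-fold. In this comparison 1 of the 9 genes was called higher and 0 lower, beside 3.36% and 0.421% of all genes. At the adjusted p alone the 6 genes stood beside 21.4% of all genes higher, and 0 of the 9 were lower beside 16.8%.

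GADD45B was at 9.87 and 10.37 TPM with SETD2 FL and at 34.28 and 39.51 with SETD2 C, a log2 fold change of 1.69 (SE 0.133, adjusted p = 0.000147 from limma). GADD45A was at 81.43 and 85.50 with SETD2 FL and at 132.85 and 163.28 with SETD2 C, a log2 fold change of 0.69 (SE 0.088, adjusted p = 0.00101 from limma). For both genes the SETD2 FL values thus lay above those of KO and below those of SETD2 C. The log2 fold changes of SETD2 FL over KO were 0.35 for GADD45A and 0.26 for GADD45B, and neither passed the test. BTG1 was at 22.71 and 24.89 with SETD2 FL and at 43.00 and 45.98 with SETD2 C, a 1.7-fold difference and a log2 fold change of 0.76 (SE 0.071, adjusted p = 0.000314 from limma). For BTG1 the libraries of the 3 groups fell into the order SETD2 FL, KO, SETD2 C, with no overlap between neighbours, although the step between SETD2 FL and KO did not pass the test.

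The CDK inhibitors followed the same order, but none of them passed the test between SETD2 FL and KO. Between KO and SETD2 C only CDKN2C passed it. For CDKN1B and CDKN1C that step was small, with log2 fold changes of 0.079 and 0.123 (adjusted p = 0.397 and 0.418 from limma). After scaling, 4 of the 9 genes had both SETD2 FL libraries below and both SETD2 C libraries above the KO libraries and passed the adjusted p between the constructs, beside 7.31% of all genes tested. CDKN2C was at 61.71 and 63.51 with SETD2 FL and at 91.82 and 95.73 with SETD2 C, a log2 fold change of 0.45 (SE 0.054, adjusted p = 0.000792 from limma). CDKN1C was at 4.80 and 5.99 with SETD2 FL and at 8.31 and 8.82 with SETD2 C, a log2 fold change of 0.51 (SE 0.112, adjusted p = 0.00966 from limma). CDKN1B was at 15.64 and 16.03 with SETD2 FL and at 20.04 and 21.64 with SETD2 C, a log2 fold change of 0.26 (SE 0.068, adjusted p = 0.0199 from limma). The adjusted p of CDKN1B was lost in 3 of the 4 fits that left out a library, and that of CDKN1C in 2. Both the comparison with KO and that with SETD2 FL use the same SETD2 C libraries. BTG2 (18.31 and 19.46 with SETD2 FL, 18.01 and 19.01 with SETD2 C) and TOB1 (19.67 and 21.97, then 21.26 and 22.20) overlapped as deposited, as did TOB2 (11.15 and 12.77, then 11.44 and 10.83). After scaling BTG2 was at 19.149 and 19.569 with SETD2 FL and at 16.947 and 17.786 with SETD2 C, and TOB2 at 11.661 and 12.842 and then at 10.765 and 10.133. On that scale both had lower values with SETD2 C without overlap, but neither passed the test (adjusted p = 0.115 and 0.0683 from limma). The intervals of their log2 differences ran from -0.312 to 0.007 for BTG2, from -0.237 to 0.11 for TOB1 and from -0.409 to -0.029 for TOB2. Over the 9 genes the median change on the log2 scale was 0.45, beside 0.04 over all genes.

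Ratios within a library, which do not depend on scaling between libraries, showed how relatives moved apart. GADD45B stood at 0.147 and 0.112 of GADD45A in KO, at 0.121 in both SETD2 FL libraries and at 0.258 and 0.242 with SETD2 C. The sum of the 3 GADD45 genes was 75.48 and 70.31 TPM in KO, 91.42 and 96.07 in SETD2 FL cells and 167.3 and 203.2 in SETD2 C cells, of which GADD45A made up between 79.4% and 89.8%. The ratio of BTG1 to BTG2 was 1.81 and 2.11 in KO, 1.24 and 1.28 in SETD2 FL cells and 2.39 and 2.42 in SETD2 C cells, so the groups did not overlap. BTG1 made up 31.5% and 31.6% of the summed TPM of the 4 BTG and TOB genes with SETD2 FL, but 45.9% and 46.9% of it with SETD2 C. The ratio of TOB1 to TOB2 was 1.75 and 1.85 in KO, 1.72 and 1.76 in SETD2 FL cells and 1.86 and 2.05 in SETD2 C cells.

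In the first table the ratio of TOB1 to TOB2 was 1.29 and 1.34 in WT and 1.74 and 1.73 in KO, and that of CDKN1B to CDKN1C was 5.68 and 5.35 in WT and 3.57 and 3.26 in KO. Neither ratio overlapped between the groups. The ratios of both tables were not tested. CDKN2C made up between 72.6% and 86.8% of the summed TPM of the 3 CDK inhibitors in all 10 libraries.

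**Figure D3:**
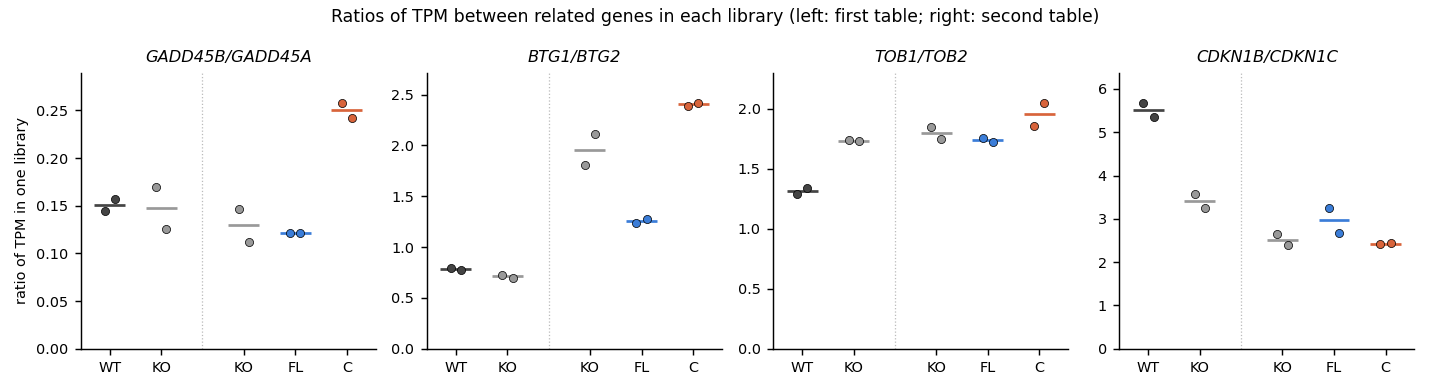
Ratio of TPM between related genes within each library (y axis) by group (x axis, FL for SETD2 FL and C for SETD2 C), where points are libraries and bars are means of 2. The ratio of GADD45B to GADD45A was highest in the SETD2 C libraries, at 0.258 and 0.242, and the ratio of BTG1 to BTG2 separated the 3 groups of the second table.

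Several of the genes share a locus with another listed gene. The lncRNA AC025164.1 on the opposite strand starts 273 bases inside BTG1 and overlaps it. Its TPM was 0.93 and 0.82 in KO, 0.83 and 0.58 in SETD2 FL cells and 2.18 and 2.21 in SETD2 C cells. It passed both thresholds with SETD2 C against SETD2 FL (log2 fold change 1.07, adjusted p = 0.00237 from limma), and relative to KO its log2 fold change was 0.86 (adjusted p = 0.0066 from limma). TOB1-AS1 overlaps TOB1 on the opposite strand and had a log2 fold change of 0.49 between SETD2 FL and SETD2 C, higher in the latter (adjusted p = 0.0448 from limma), whereas TOB1 did not pass the test. FAF1, which starts 478 bases from CDKN2C on the opposite strand, was lower with SETD2 C than in KO, with a log2 fold change of -0.29, whereas CDKN2C was higher. GPR19 overlaps CDKN1B and LINC01619 overlaps BTG1, and LINC01136 and AL161910.1 start within 2000 bases of BTG2 and GADD45G. Whether reads were assigned by strand is not given in the sources used here, so reads of BTG1, TOB1 and CDKN1B cannot be told apart from those of the overlapping genes with certainty.

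The genes with the most similar pattern over the 6 libraries of the second table were sought for GADD45A and GADD45B by the root mean square difference of centred log2 values among tested protein-coding genes. For GADD45A these were BEND5 (0.046), CCDC160 (0.079) and CACNG6 (0.081), all at low levels, such as a TPM of 3.25 and 4.12 for BEND5 with SETD2 C and 1.5 and 1.23 in KO. For GADD45B, ID1 (0.159) and NDUFA4L2 (0.163) were among the 3 nearest. ID1, an inhibitor of basic helix-loop-helix factors, was at 17.4 and 15.19 in KO, 16.08 and 16.78 in SETD2 FL cells and 64.91 and 59.95 in SETD2 C cells. All these values share the same 6 libraries.

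The other CDK inhibitor and BTG genes were CDKN1A, CDKN2A, CDKN2B, CDKN2D, CDKN3, BTG3 and BTG4, of which 6 were tested, since BTG4 was listed at 0 in every library. None was called in any comparison. With SETD2 C relative to KO, 4 of the 6 were higher and 1 was lower at the adjusted p, and the counts were the same relative to SETD2 FL. Of all genes, 21.1% were higher and 15.1% lower against KO, and 21.4% and 16.8% against SETD2 FL. CDKN1A (p21) was at 28.00 and 29.92 TPM in KO, 31.88 and 34.39 in SETD2 FL cells and 51.86 and 48.17 in SETD2 C cells, a log2 fold change of 0.63 relative to KO (adjusted p = 0.00063 from limma). CDKN2D (p19), a relative of CDKN2C, was at 9.58 and 8.68 in KO, 8 and 8.99 in SETD2 FL cells and 14.86 and 16.64 in SETD2 C cells. Its log2 fold changes were 0.61 against KO and 0.73 against SETD2 FL. CDKN2B and BTG3, which were named after their values were seen, rose by 0.52 and 0.44 on the log2 scale relative to KO. CDKN2A was lower, with a log2 fold change of -0.42 relative to KO and of -0.23 relative to SETD2 FL. The median of the 6 genes was 0.48 relative to KO, beside 0.05 over all genes. Between WT and KO, CDKN2B was higher in KO, at 12.99 and 12.58 against 6.11 and 7.55 TPM (log2 fold change 0.74, adjusted p = 0.00945 from limma). With SETD2 FL, 0 of the 6 passed the test.

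In 3 lists of genes that act with the CDK inhibitors none was called, where 3.75% of all genes were called higher and 0.314% lower with SETD2 C against KO. At the adjusted p alone the counts that follow stand beside 21.1% of all genes higher and 15.1% lower against KO, and 21.4% and 16.8% against SETD2 FL. Of the 9 kinases and cyclins the inhibitors bind, 1 was higher and 3 were lower with SETD2 C than in KO, with a median of -0.16. CDK4, which CDKN2C inhibits, was at 246.23 and 253.42 TPM in KO and 224.59 and 209.66 with SETD2 C (log2 fold change -0.35, adjusted p = 0.00259 from limma), and CCNE2, a cyclin E, was higher by 0.27 on the log2 scale. Of 8 genes for the turnover of p27, 1 was higher and 3 were lower, with a median of -0.06. CUL1, the scaffold of the SCF ubiquitin ligase that marks p27 for degradation, was lower, with log2 fold changes of -0.47 against KO and -0.56 against SETD2 FL, and SKP1 of the same ligase was higher by 0.3 and 0.29 on the log2 scale. Of 11 pocket protein and E2F genes, which act downstream of the CDKs, 1 was higher and 2 were lower with SETD2 C in both comparisons. RBL2 (p130) was higher by 0.34 against KO and 0.51 against SETD2 FL, and E2F5 was lower, with log2 fold changes of -0.57 and -0.68. None of the genes of these 3 lists passed the test with SETD2 FL relative to KO, and between WT and KO E2F5 was the only one that did, lower in KO (log2 fold change -0.66, adjusted p = 0.00848 from limma).

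**Figure D4:**
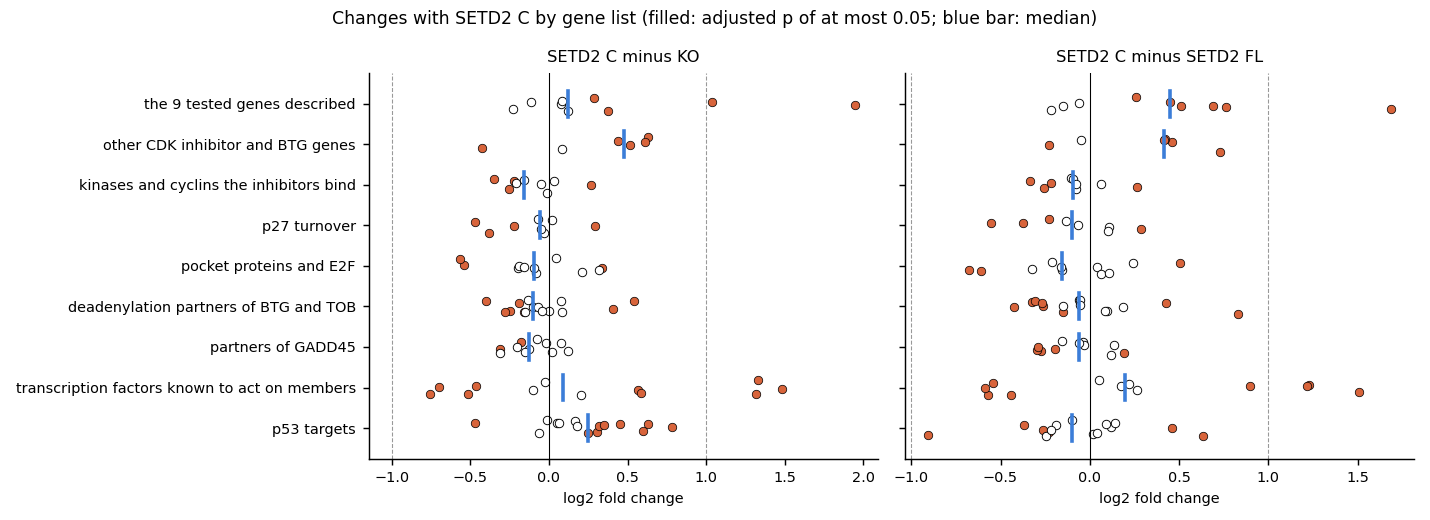
Log2 fold changes with SETD2 C relative to KO (left) and to SETD2 FL (right) on the x axis for the tested genes of each list (y axis), where points are genes, filled points passed an adjusted p of 0.05, and blue bars are medians. The medians of the genes described here were 0.12 and 0.45 and those of the other CDK inhibitor and BTG genes 0.48 and 0.42, whereas the medians of their partner lists lay between -0.16 and -0.06. Vertical jitter has no meaning.

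Of 15 deadenylation genes that work with BTG and TOB proteins, 2 were higher and 5 lower with SETD2 C than in KO, with a median of -0.1, beside 21.1% and 15.1% of all genes. Against SETD2 FL 2 were higher and 6 lower, beside 21.4% and 16.8%. PAN2, the catalytic subunit of another deadenylase, was higher with SETD2 C by 0.54 against KO and 0.83 against SETD2 FL, and was lower in KO than in WT, with a log2 fold change of -0.48. CNOT10 of the CCR4-NOT complex was lower with SETD2 C, with log2 fold changes of -0.4 and -0.42. Of 11 partners of GADD45, 0 were higher and 2 lower than in KO, and 1 was higher and 4 lower than with SETD2 FL, beside the same shares of all genes. MAPK14 (p38) was higher by 0.19 relative to SETD2 FL (adjusted p = 0.042 from limma), and GADD45GIP1, which encodes a protein that binds GADD45 proteins, was lower, with a log2 fold change of -0.31 relative to KO. None of the genes of either list passed the test with SETD2 FL relative to KO.

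Of 12 transcription factors known to act on genes of these families, 3 were called higher with SETD2 C, relative to both KO and SETD2 FL, beside 3.75% and 3.36% of all genes. ATF3, a stress-induced factor, was at 96.97 and 113.61 TPM in KO, 103.04 and 106.18 in SETD2 FL cells and 298.22 and 356.98 in SETD2 C cells (log2 fold change 1.48 relative to KO, adjusted p = 7.55e-05 from limma). DDIT3 (CHOP) was at 21.00 and 17.74 in KO, 19.65 and 22.45 in SETD2 FL cells and 56.05 and 52.92 in SETD2 C cells (log2 fold change 1.33, adjusted p = 8.12e-05 from limma). KLF4 was at 4.13 and 3.73 in KO, 3.82 and 4.82 in SETD2 FL cells and 10.91 and 12.34 in SETD2 C cells (log2 fold change 1.31, adjusted p = 0.000313 from limma). In all, 5 of the 12 were higher and 4 lower relative to KO at the adjusted p, beside 21.1% and 15.1% of all genes. FOXO4 was called higher in KO than in WT, at 64.14 and 68.68 against 7.75 and 11.37 TPM (log2 fold change 2.63, adjusted p = 0.000199 from limma). CDKN1B, which FOXO factors can induce, did not pass the test in that comparison, and a link between these genes was not tested. With SETD2 C FOXO4 was lower than in KO, with a log2 fold change of -0.7.

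Of 15 p53 target genes, 3 were higher with SETD2 FL than in KO at the adjusted p, and 0 lower, beside 0.176% and 0.0314% of all genes. TP53I3, a quinone oxidoreductase, was called, at 2.08 and 2.17 TPM in KO, 4.61 and 4.99 in SETD2 FL cells and 4.47 and 4.38 in SETD2 C cells (log2 fold change 1 for SETD2 FL, adjusted p = 0.0322 from limma). The others were PHLDA3, by 0.54, and DDB2, by 0.41 on the log2 scale, both named after their values were seen. With SETD2 C relative to KO 8 of the 15 were higher and 1 lower, with a median of 0.25, beside 21.1% and 15.1% of all genes. Against SETD2 FL 2 were higher and 4 lower, with a median of -0.1, beside 21.4% and 16.8%. The list holds CDKN1A, which is also counted above. Between WT and KO 0 of the 15 passed the test.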

How the data were processed

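The data were 10 RNA-seq libraries of HEK293T cells, and the other 14 samples of the series, from ChIP-seq, were not analysed here. Paired reads came from libraries made after ribosomal depletion and poly(A) enrichment. Per the labels, the authors used bcl2fastq 2.18, STAR 2.6.1c and RSEM 1.3.0 with hg38, and deposited estimated TPM per gene in 2 separate tables, with no normalization between libraries. The strand setting is not given in the sources used here, and depth cannot be derived from TPM.

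Annotation came from GENCODE 44 on GRCh38 (of 58884 genes, 58472 were found by identifier, 31 by symbol, 381 by neither), and promoter sequences from RefSeq (GRCh38.p14). Within each table, libraries were scaled by their median ratio to the geometric mean of genes that reached a TPM of 1 throughout. Genes of protein-coding or lncRNA type that reached a TPM of 0.5 in 2 or more libraries entered the test as log2(scaled TPM + 0.5), a scale that understates changes of low genes, with limma 3.58.1 in R 4.3.3 (eBayes with trend). P-values were adjusted by Benjamini-Hochberg over all genes of a table, 14746 in the first and 15933 in the second, whose 6 libraries shared one fit. The procedure was tested on simulated data. Figures were drawn with matplotlib 3.10.9.

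The members, gene lists and tests were chosen with earlier results of these data known. From each list, genes called in any comparison were named, or else the largest change past the adjusted p in each direction. Neighbours overlapped a member or started within 2000 bases of its start. Some genes these rules select are not reported here. Alternatives were other pseudocounts, filters, scalings and fits, each library left out, and a replicate block for the first table, whose numbers came from the labels. Adjustments for GC content and transcript length were added after the data were seen.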

Additional observations from a re-analysis of the deposited data

Results flagged for a closer look

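In 4 of the 9 tested genes both SETD2 FL libraries lay below both KO libraries and both SETD2 C libraries lay above them in scaled TPM, and the difference between the constructs passed the test, as for 7.31% of all genes tested. For CDKN1C the gap was narrow, with the lower SETD2 C library at 7.819 and the higher KO library at 7.794. On the log2 scale SETD2 C exceeded SETD2 FL by 0.763 for BTG1 (adjusted p = 0.000314 from limma), by 0.451 for CDKN2C (0.000792), by 0.508 for CDKN1C (0.00966) and by 0.26 for CDKN1B (0.0199). Both differences from KO use the same KO libraries. The lower values with SETD2 FL did not pass the test against KO for any of the 4 genes (adjusted p from 0.0998 to 0.264 from limma), and the higher values with SETD2 C did so for BTG1 and CDKN2C but not for CDKN1C (0.418) or CDKN1B (0.397). Groups of 2 libraries were too small to look for single libraries that stand apart.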

How the results depend on the processing

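Of the 540 recomputed values of the 9 genes, 513 kept their direction and their side of the test. GADD45A and GADD45B stayed past the adjusted p in all 15 alternatives of both comparisons of SETD2 C, with log2 fold changes relative to KO from 0.89 to 1.19 for GADD45A and from 1.74 to 2.15 for GADD45B, and BTG1 and CDKN2C did so too. With each library left out in turn, between 1 and 2 genes were called higher with SETD2 C than in KO, since GADD45A was below the fold threshold without the second SETD2 C library. Between WT and KO, from 0 to 1 gene passed the adjusted p when a library was left out, and 0 did with no filter beyond a TPM above 0. CDKN1B turned to a log2 fold change of 0.124 in KO against WT without scaling, 0.011 under quantile normalization, 0.017 when rescaled without mitochondrial genes and SETD2 and 0.018 adjusted for length, and ranged from -0.069 to 0.07 with a library left out. With SETD2 FL relative to KO, TOB1 turned to 0.009 when rescaled and ranged from -0.121 to 0.014 with a library left out, and TOB2 turned to 0.013 without scaling and 0.055 when rescaled and ranged from -0.074 to 0.06. Without scaling TOB1 turned to 0.029 with SETD2 C against KO and to 0.062 against SETD2 FL, and CDKN1B and BTG2 passed the adjusted p relative to KO (0.0417 and 0.0464 from limma), where the median of all genes was 0.18. Under quantile normalization TOB2 passed the adjusted p as lower with SETD2 C in both comparisons (0.0377 in each). With SETD2 C against SETD2 FL, leaving out a library took CDKN1B to an adjusted p from 0.0637 to 0.119 in 3 fits, and CDKN1C to 0.055 and 0.0556 in 2. The cause was not tested. Under the replicate block the CDKN1C change between WT and KO stayed at 0.592 (adjusted p = 0.0427 from limma) and no call among the 9 genes changed, and all genes past the adjusted p alone went from 194 higher and 467 lower to 442 and 827. Same-numbered deviations correlated at 0.147 over 2 pairs, too few to say that the numbers pair the libraries. Other counts of all genes that moved by over 1.5 times with the setting are given for SETD2 C relative to KO, where 335 genes were called higher at a pseudocount of 1, 987 at a pseudocount of 0.1 and 267 when a TPM of 1 was required throughout, against 597. With a library left out, the genes past the adjusted p ranged from 1734 to 2302 higher and from 1331 to 1728 lower against KO, and from 1868 to 2388 and from 1570 to 2070 against SETD2 FL. The split of genes past the adjusted p alone was 3359 higher and 2405 lower, and it went to 5509 and 1117 when TPM was left unscaled and to 2457 and 2786 when quantile normalized. A fit of only the groups compared was not run for the first table, where it equals the fit used. Depth is unknown, so what it limits cannot be given.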

Other observations

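Both tables hold libraries of untreated KO cells, which the labels place in different batches, and some of the genes were listed at different levels in them. BTG1 was at 12.77 and 12.30 TPM in KO of the first table and at 29.55 and 32.15 in KO of the second. CDKN1C was at 4.02 and 3.92 in the first and at 6.67 and 7.46 in the second. TOB1 was at 35.63 and 34.36 in the first and at 22.44 and 20.19 in the second, TOB2 at 20.53 and 19.91 and then at 12.15 and 11.51, and CDKN2C at 104.29 and 109.25 and then at 71.48 and 67.34. GADD45A (59.20 and 69.44, then 65.82 and 63.17) and GADD45B (10.06 and 8.75, then 9.66 and 7.06) overlapped between the tables. The tables were made separately, and these differences were not tested.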
